A study of Mus musculus with 24 samples.

Results

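Cholesterol and fatty acids are built in animal cells by enzymes whose genes share a set of controlling transcription factors, the sterol regulatory element-binding proteins SREBP1 and SREBP2. The genes described here are 32 of these: the genes of the factors themselves (Srebf1 and Srebf2) and of their sterol-dependent retention protein (Insig1), here called the regulators, a sterol carrier, and enzymes of the mevalonate, squalene and sterol, and fatty acid arms. They were chosen by symbol from a list of SREBP-controlled lipid synthesis genes, and each of the 32 symbols matched a single Ensembl gene among the 54146 genes counted. The precursor SREBPs sit in the endoplasmic reticulum bound to the escort protein SCAP. When membrane sterol is low they travel to the Golgi, where proteases release a fragment that enters the nucleus, and when sterol is high INSIG proteins hold the complex back. In the small intestine the epithelium both absorbs dietary sterol and makes its own, and the pathway supplies membrane for the rapid renewal of this tissue. CDK8 and its paralogue CDK19 are kinases of the Mediator complex, which links transcription factors to RNA polymerase II.

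Messenger RNA was sequenced in 24 libraries of mouse small intestinal organoids, which are epithelial cultures grown in gel, in 8 groups of 3 biological replicates. In the genotype experiment, 4 groups were labelled wild type (WT), CDK8-/-, CDK19-/-, and CDK8-/- with CDK19-/- (here double knockout), and organoids of all 4 groups, WT included, had 7 days of 600 nM 4-hydroxytamoxifen before lysis. Cdk8 exon deletion was driven by a tamoxifen-activated Cre under the Villin promoter, which is active in intestinal epithelium, and Cdk19 was disrupted by a lentiviral CRISPR guide followed by puromycin and expansion of picked single organoids, so that those cultures are clonal. In the inhibitor experiment, the other 4 groups received 10 µM Senexin B, an inhibitor of both kinases, or its vehicle DMSO, for 16 h or 24 h. The paper describes the organoids of these 4 groups as WT. The labels call the genotype samples by the cell type 4T1, a mammary tumour line, and call the inhibitor libraries rRNA-depleted total RNA although the protocol text names oligo(dT) selection. The comparisons ask how the lipid synthesis genes stand when either kinase gene or both are disrupted, and when both kinases are inhibited for either time.

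Reads assigned to genes numbered 14636861 to 15473180 per genotype library and 27075937 to 28405118 per inhibitor library, in the strand column used. Counted without regard to strand (column 2), they numbered 27761454 to 29299919 and 28264517 to 28826860. The lower genotype numbers thus come from the column used and not from fewer reads sequenced. Values below are normalised counts: reads of a gene divided by the library's effective size and multiplied by the mean effective size of the 12 libraries of the same experiment, so levels cannot be compared between the experiments. All 32 genes passed the filter on low counts in both experiments, among 15602 genes tested in the genotype experiment and 15467 in the inhibitor experiment. A gene is said to be called when its p from the edgeR quasi-likelihood test, adjusted by Benjamini-Hochberg over all genes tested in that experiment, was under 0.05. Log2 fold changes are those of the fit, given with their standard error (SE).

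The labels were checked against the counts. Cdk8 was at 635, 646 and 534 normalised counts in WT libraries 1 to 3, 685, 857 and 634 in those labelled CDK8-/-, 694, 694 and 726 in those labelled CDK19-/- and 707, 659 and 645 in the double knockout libraries. None of the 6 libraries labelled as lacking Cdk8 was below the lowest WT library, and whole-gene counts cannot show the loss of an exon. Cdk19 was at 711, 749 and 726 in WT, 702, 646 and 582 in CDK8-/-, 729, 420.1 and 422 in CDK19-/- and 403, 355 and 773 in the double knockout. Thus CDK19-/- library 1 and double knockout library 3 held Cdk19 at the WT level, and the genotype names below are those of the labels. For its edited organoids the paper reports a sequenced deletion at the Cdk19 guide site, no CDK19 protein on Western blots and loss of Cdk19 mRNA by qPCR. It also reports loss of the targeted Cdk8 exon by genotyping, and bases efficient Cdk8 removal after 7 days of 4-hydroxytamoxifen on Western blots as well. In longer culture, it reports, CDK8 protein came back in 2 of 3 double knockout populations. In the inhibitor experiment Cdk8 was at 1595, 1902 and 2102 with DMSO for 16 h, 1714, 1826 and 1919 with DMSO for 24 h, 1824, 2035 and 1979 with Senexin B for 16 h and 1654, 1621 and 1833 for 24 h. Cdk19 in the same order was at 1146, 1218 and 1126, then 1562, 1360.0 and 1484, then 1256, 1189 and 1249, then 1401, 1127 and 1174. Cdk19 was called lower with Senexin B at 24 h (−0.25, adjusted p 0.0375), but not without DMSO library 1 or 3 or Senexin B library 2 or 3, and higher with time in DMSO (0.34, 0.0216), but not without 16 h library 3 or 24 h library 1 or 3. Epithelial Epcam was at 19833 or more in each genotype library, whereas the mammary genes Krt5, Krt14, Csn2 and Elf5 had at most 13 reads in any of them and Csn2 had 0. The 4 adipocyte markers, checked because fat cells are rich in lipid synthesis enzymes, had at most 1 read in any of the 24 libraries.

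Per length, as reads per kilobase of exon scaled to library size, the most abundant of the 32 genes in WT was Scd2, a stearoyl-CoA desaturase that puts a double bond into saturated fatty acids, at a mean of 223 (n = 3). It was followed by the desaturase Fads2 at 100.03, the mevalonate enzyme Hmgcs1 at 86.6, the citrate-cleaving enzyme Acly at 65.3 and the retention protein gene Insig1 at 62.0. The lowest were Idi1 at 0.971, Acaca at 1.08 and Fdps at 3.07. With DMSO for 16 h, Scd2 again ranked highest at 521, ahead of Insig1 at 214, Cyp51 at 138 and Hmgcs1 at 134, and Fdps (4.04) and Acaca (4.71) were lowest. Idi1, which encodes the isomerase that balances the pool of isoprene units, had a median of 45.5 reads in the genotype libraries in the strand column used and 139 in the other, against 1976.5 and 142.5 in the inhibitor libraries. The genotype libraries held 49.6% to 49.7% of strand-assigned reads in the column used and the inhibitor libraries 87.9% to 90.5%, so reads of the opposite strand enter the genotype values. Exon overlap with a neighbouring gene was largest for Fdps (26.7% of its exon bases, with Gm43738 on the same strand), Fdft1 (18.3%, with Ctsb on the opposite strand), Hmgcs1 (12.1%, with Gm48342, opposite) and Tm7sf2 (12.1%, with Vps51, same).

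Before any comparison, 2 genotype libraries stood apart in these genes. CDK8-/- library 2 was the highest of its group for 32 of the 32 genes, where 37.7% of all genes tested were highest in that library. Double knockout library 1 was likewise the highest of its group for 32 of 32, against 34.2% of all genes, and it was the highest of all 12 genotype libraries for 23. The median log2 ratio of the 32 genes to the WT mean was −0.03, 0.70 and −0.03 in CDK8-/- libraries 1 to 3, −0.01, −0.35 and −0.25 in CDK19-/- and 1.05, 0.28 and −0.15 in the double knockout. The high values were those of CDK8-/- library 2 and double knockout library 1, and double knockout library 3, the library with Cdk19 at the WT level, was the lowest of its group for 30 of 32 genes. The same median over all genes tested lay between −0.03 and 0.02 in every genotype library. Summed normalised counts of the 32 genes were 84627, 86183 and 91107 in WT, 84411, 146981 and 83079 in CDK8-/-, 89632, 82849.9 and 92781 in CDK19-/- and 175654, 99988 and 77799.6 in the double knockout. Relative to the mean of its 2 group mates, CDK8-/- library 2 was higher by a median log2 ratio of 0.73, from 0.08 for Srebf2 to 1.60 for Scd1. For double knockout library 1 the median was 0.81, from 0.22 for Acly to 2.12 for Scd1. Results in the genotype experiment are therefore given with and without these libraries, a choice made after their values were seen. In bulk RNA, fewer cells of a type and less RNA per cell cannot be told apart.

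**Figure D1:**
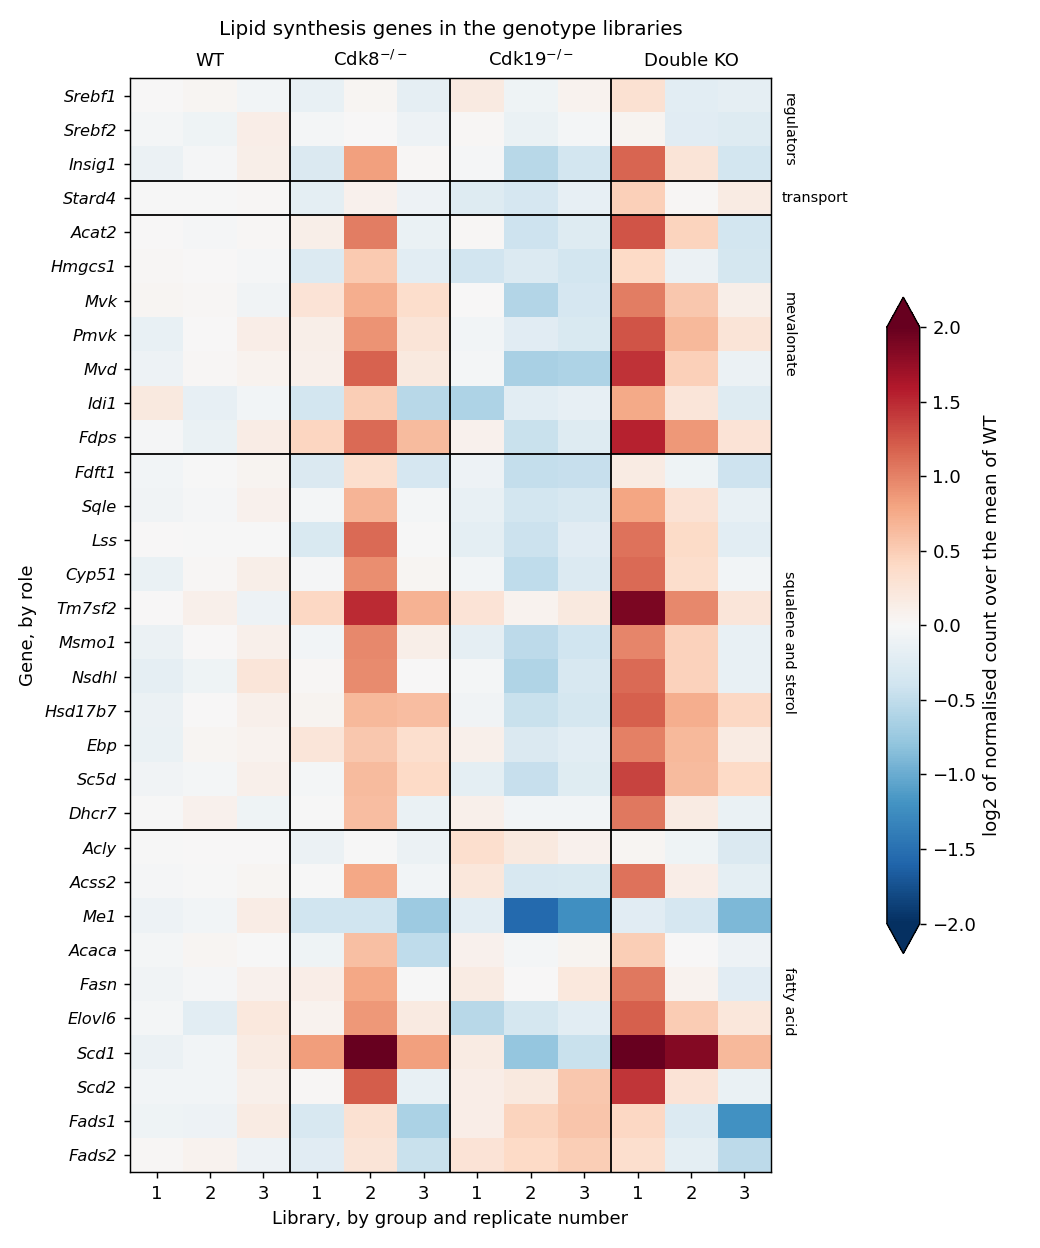
Heat map of the 32 genes, ordered by role, in the 12 genotype libraries, coloured by the log2 ratio of the normalised count to the WT mean with colours saturating at ratios of 2 either way. CDK8-/- library 2 and double knockout library 1 are the highest of their groups for every gene.

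In the libraries labelled CDK8-/- against WT, the comparison that asks about loss of CDK8 alone, 0 of the 32 genes were called by edgeR in either direction and 0 by DESeq2, with 5 at an unadjusted p under 0.05. Over all genes tested, 2.79% were called higher, 2.36% lower, and 3341 had an unadjusted p under 0.05. The median log2 fold change of the 32 genes was 0.35 against 0.01 over all genes, with 23 of 32 above 0, and it was 0.47 in the mevalonate arm, 0.38 in the sterol arm and 0.18 in the fatty acid arm. In 6 of the 32 genes all 3 libraries were above all 3 of WT, as in 14.9% of all genes, and in 2 all were below, as in 14.7%. Srebf1 was at 3834, 4357 and 3756 against 4281, 4333 and 4097 in WT, Srebf2 at 5990.4, 6189 and 5738 against 5956, 5770.1 and 6726, and Insig1 at 2351, 5052 and 2896 against 2654, 2818 and 3118. All 3 regulators overlapped with WT, Insig1 being highest in library 2, and they had log2 changes of −0.09, −0.04 and 0.26 (SE 0.132, 0.101 and 0.340, adjusted p 0.748, 0.854 and 0.710). Tm7sf2, a sterol C14 reductase, was at 649.7, 1377 and 786 against 488, 521 and 453 in WT, and Fdps, which makes farnesyl diphosphate, at 259.9, 421 and 298 against 190.1, 176 and 213. Both genes were higher in each of the 3 libraries than in any WT library, with library 2 far above its mates. The log2 fold changes were 0.94 (SE 0.347, adjusted p 0.139) for Tm7sf2 and 0.76 (SE 0.279, adjusted p 0.140) for Fdps. Scd1, the desaturase paralogue of Scd2, was at 2424, 7309 and 2395 against 1249, 1309 and 1524, without overlap, at a log2 change of 1.57 (SE 0.606, adjusted p 0.160). With no filter on low counts these 3 genes were called. Without library 2 of this group the median of the 32 genes was −0.04, with 14 above 0, and the log2 fold changes were 0.56 for Tm7sf2, 0.53 for Fdps, 0.82 for Scd1 and −0.13 for Insig1. Without that library and double knockout library 1 together, the median was −0.03.

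The libraries labelled CDK19-/- were set against the same WT libraries to ask about loss of CDK19 alone. Here 0 of the 32 genes were called by edgeR and 0 by DESeq2, with 2 at an unadjusted p under 0.05, and over all genes tested 0% were called higher and 0% lower, with 1691 at an unadjusted p under 0.05. The median was −0.26 against −0.02 over all genes, with 24 of 32 genes below 0, and it was −0.15 without CDK19-/- library 2 and −0.30 without CDK19-/- library 1, the library with Cdk19 at the WT level. With CDK8-/- library 2 and double knockout library 1 both left out of the fit it was −0.24. Below 0 were 7 of 7 genes of the mevalonate arm (median −0.29) and 10 of 11 of the sterol arm (−0.28), while the fatty acid arm had a median of 0.08. In 9 of the 32 genes all 3 libraries lay below all 3 of WT, as in 10.8% of all genes, and in 3 all lay above, as in 9.13%. Srebf1 was at 4781, 4009 and 4458, Srebf2 at 6237, 5639 and 5958 and Insig1 at 2825, 1953 and 2211. These 3 again overlapped with WT, with log2 changes of 0.06, −0.05 and −0.30 (SE 0.132, 0.101 and 0.341, adjusted p 0.930, 0.922 and 0.833) in that order. Me1, the malic enzyme that supplies NADPH for fatty acid synthesis, was at 295, 116 and 146 against 317, 328 and 380.0 in WT. The groups did not overlap, and library 1, which held Cdk19 at the WT level, was close to WT. Its log2 fold change was −0.88 (SE 0.287, adjusted p 0.250), and without CDK19-/- library 1 it was −1.37 (adjusted p 0.00665), which made Me1 the only called gene of the 32. It was also called with no filter on low counts. Stard4, a carrier of sterol between membranes, was at 4071, 3866 and 4343 against 4853, 4870.4 and 4942, below WT in each library, with a log2 change of −0.26 (SE 0.115, adjusted p 0.440). Acly was at 6513, 5894 and 5457 against 5124, 5165 and 5173, above WT in each library, with a log2 change of 0.21 (SE 0.0959, adjusted p 0.461).

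In the double knockout libraries against WT, which uses the same WT libraries again, 7 of the 32 genes were called higher and 0 lower by edgeR, and 9 had an unadjusted p under 0.05. Over all genes, 9.41% were called higher and 7.9% lower. DESeq2 called 9 of the 32 higher, the added genes being Mvk and Elovl6, and 0 lower, with 3186 called over all genes. The median log2 fold change was 0.50 against −0.01 over all genes, with 25 of 32 above 0. All 3 libraries were above all 3 of WT in 10 of the 32 genes, as in 18.7% of all genes, and below in 1, Me1, as in 20.1% of all genes. By role, 0 of 3 regulators, 2 of 7 genes of the mevalonate arm (arm median 0.61), 4 of 11 of the sterol arm (0.56) and 1 of 10 of the fatty acid arm (0.28) were called. Of the regulators 0 were called by DESeq2 and 0 had an unadjusted p under 0.05. Srebf1 was at 5258, 3644 and 3745, Srebf2 at 6384, 5257 and 5119 and Insig1 at 6406, 3436 and 2218. Insig1 had its highest value of the experiment in library 1 and lay below WT in library 3, and the test gave log2 changes of −0.01, −0.14 and 0.49 (SE 0.132, 0.101 and 0.341, adjusted p 0.977, 0.369 and 0.349) in that order.

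Among the mevalonate enzymes, Pmvk, which phosphorylates phosphomevalonate, was at 1366, 895 and 689 in double knockout libraries 1 to 3 against 518, 573 and 627 in WT. The groups did not overlap, library 1 was the highest and library 3 the closest to WT, and the gene rose with a log2 change of 0.78 (SE 0.238, adjusted p 0.0418). Fdps was at 561, 353 and 233 against 190.1, 176 and 213. It had the same order of libraries, no overlap, and a log2 change of 0.99 (SE 0.279, adjusted p 0.0313). The other mevalonate genes, Acat2, Hmgcs1, Mvk, Mvd and Idi1, had log2 fold changes of 0.59, 0.01, 0.61, 0.75 and 0.30 and were not called.

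In the sterol arm, Tm7sf2 was at 1796, 952 and 579 against 488, 521 and 453 in WT. Library 1 was far above the WT libraries while library 3 stood just above them, and the gene rose with a log2 change of 1.19 (SE 0.348, adjusted p 0.0359). Hsd17b7 (ENSMUSG00000026675, chr1:169949535-169969241), the 3-ketosteroid reductase of sterol C4 demethylation, was at 1558, 1127 and 909.9 against 628, 681 and 733. Each of the 3 libraries was above every WT library, with a log2 change of 0.82 (SE 0.197, adjusted p 0.0153). Ebp, the isomerase that moves the sterol ring's double bond, was at 2472, 1929 and 1376 against 1128, 1272 and 1298, again without overlap, with a log2 change of 0.64 (SE 0.178, adjusted p 0.0283). Sc5d (ENSMUSG00000032018, chr9:42251595-42264256), which makes the C5 double bond late in the pathway, was at 4523, 2774 and 2347 against 1689.7, 1742 and 1912. Its 3 libraries were all above WT, library 1 by the most, with a log2 change of 0.85 (SE 0.218, adjusted p 0.0201). The remaining 7 genes of the arm, Fdft1, Sqle, Lss, Cyp51, Msmo1, Nsdhl and Dhcr7, were not called, at log2 fold changes between −0.09 for Fdft1 and 0.58 for Nsdhl.

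In the fatty acid arm, Scd1 (ENSMUSG00000037071, chr19:44394455-44407879) was at 15196, 4863 and 2135 in the double knockout libraries against 1249, 1309 and 1524 in WT. The groups did not overlap, but the double knockout libraries spanned a wider range than any other group, from the highest value of the experiment in library 1 to the value nearest WT in library 3. Scd1 rose with a log2 change of 2.44 (SE 0.622, adjusted p 0.0198). Its paralogue Scd2 was at 48927, 21916 and 16578 against 17551, 17612 and 19446, with library 3 below all of WT, and was not called at 0.68. The fatty acid synthase Fasn, the elongase Elovl6 and the acetyl-CoA ligase Acss2 had log2 fold changes of 0.41, 0.70 and 0.44 and were not called. Neither were Acly (−0.11), Me1 (−0.46), Acaca (0.16), Fads1 (−0.22) and Fads2 (−0.08), nor the carrier Stard4 (0.23).

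These 7 calls depended on single libraries. Of the 32 genes, 0 were called without WT library 1, 0 without WT library 2, 2 without WT library 3, 1 without double knockout library 1, 3 without double knockout library 2 and 9 without double knockout library 3, where 1348, 1454, 1795, 2006, 1917 and 2452 of all genes were called against 2700 with all 12 libraries. Hsd17b7 was called in all but the omissions of WT libraries 1 and 2, Sc5d also lost its call without double knockout library 1, and Scd1 was called only when double knockout library 2 or 3 was left out. Tm7sf2, Fdps, Pmvk and Ebp were called only without double knockout library 3. Without double knockout library 1 the log2 fold changes were 1.38 for Scd1, 0.66 for Tm7sf2, 0.61 for Fdps, 0.54 for Sc5d, 0.59 for Hsd17b7, 0.48 for Pmvk and 0.44 for Ebp, and that of Insig1 was −0.01. The median of the 32 genes was then 0.10, with 20 above 0, and it was 0.76 without double knockout library 3. With CDK8-/- library 2 and double knockout library 1 both left out, 5 of the 32 genes were called, without Fdps and Ebp, and the median was 0.10. A fit of only these 2 groups called 3 of the 32, Hsd17b7, Sc5d and Scd1, and 2787 of all genes.

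**Figure D2:**
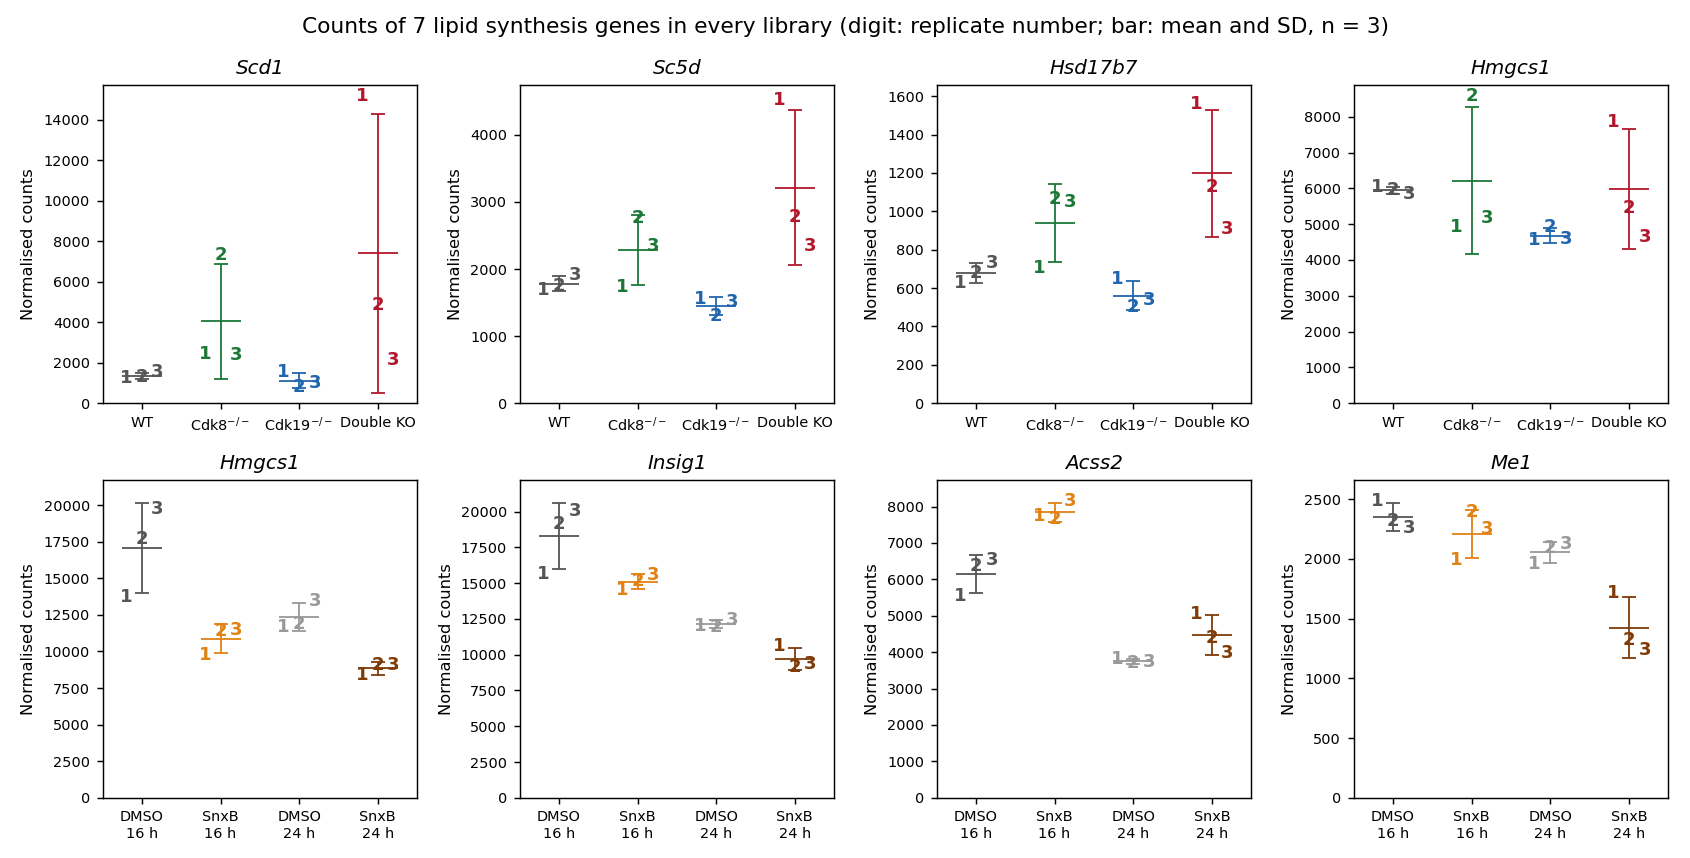
Normalised counts in every library for Scd1, Sc5d, Hsd17b7 and Hmgcs1 by genotype (top) and for Hmgcs1, Insig1, Acss2 and Me1 by agent and time (bottom), with digits for the replicate number and bars for the mean and SD (n = 3). Double knockout library 1 is the highest library for Scd1, Sc5d and Hsd17b7, and Hmgcs1 is lower in each Senexin B library than in any DMSO library of the same time.

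The double knockout was also set against the libraries labelled CDK8-/-, to ask what loss of CDK19 adds. Of the 32 genes, 0 were called by edgeR and 0 by DESeq2, with 2 at an unadjusted p under 0.05. Over all genes 0% were called higher and 0.0256% lower, with 2417 at an unadjusted p under 0.05. The median was 0.17 against −0.01 over all genes, with 27 of 32 above 0. In 0 of the 32 genes were the groups free of overlap, where 7.76% of all genes had every double knockout library above every CDK8-/- library and 8.04% had every one below. The median was −0.17, with 6 genes above 0, without double knockout library 1, 0.03 without CDK8-/- library 1 or library 3, and 0.46 without CDK8-/- library 2. It was 0.25 without double knockout library 2 and 0.42 without library 3. With CDK8-/- library 2 and double knockout library 1 both left out it was 0.11, with 25 genes above 0. The smallest p values belonged to Stard4 (0.30, SE 0.115, adjusted p 0.243), Sc5d (0.50, 0.216, 0.298) and Hsd17b7 (0.35, 0.194, 0.412). In the CDK8-/- libraries Stard4 was at 4263, 5196 and 4546, against 6785, 4972 and 5500.4 in the double knockout. Sc5d was at 1733, 2766 and 2340.2 and Hsd17b7 at 706, 1063 and 1049 in the CDK8-/- libraries, so all 3 genes overlapped between the groups. The same contrast gave Srebf1, Srebf2 and Insig1 log2 changes of 0.08, −0.10 and 0.23 (SE 0.132, 0.101 and 0.340, adjusted p 0.820, 0.692 and 0.804).

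A further test asked whether the double knockout departed from the sum of the 2 single effects. By edgeR 0 of the 32 genes were called and 4 had an unadjusted p under 0.05, while DESeq2 called 1, Stard4, and 490 of all genes. Over all genes 0.00641% were called higher and 0.0192% lower, with 2269 at an unadjusted p under 0.05. The departure had a median of 0.40 against 0.00 over all genes and was above 0 for 7 of 7 mevalonate genes and 11 of 11 sterol genes (0.43 and 0.40), but for 5 of 10 fatty acid genes (−0.01). Stard4 had a departure of 0.56 (SE 0.162, adjusted p 0.151), Sc5d of 0.79 (0.307, 0.269) and Hsd17b7 of 0.63 (0.278, 0.327). In the CDK19-/- libraries Sc5d was at 1551, 1294 and 1508 and Hsd17b7 at 645, 499 and 535. As departures, the 3 regulators had log2 changes of 0.02, −0.05 and 0.53 (SE 0.186, 0.142 and 0.481, adjusted p 0.971, 0.913 and 0.660). Without double knockout library 1 the median departure was 0.04, and it was 0.64 without CDK8-/- library 2 and 0.62 without double knockout library 3. With both libraries that stood apart left out it was 0.36. Without CDK19-/- library 1, 1 of the 32 genes and 467 of all genes were called, the 1 being Me1, whose departure with all libraries was 0.92.

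Cell type markers moved with the genotype groups. Of 6 enterocyte markers, Apoa1, Apoa4 and Fabp2 rose in the double knockout (1.06, 1.59 and 1.18) and Apoa4 rose in CDK8-/- (1.09). Summed enterocyte markers, of which Sis was the most abundant, were at 93751, 96024 and 88479.6 in WT, 109843, 122194 and 120093 in CDK8-/-, 76304, 55443 and 64676 in CDK19-/- and 205820.0, 143831 and 147774 in the double knockout. The highest sum was that of double knockout library 1, which was also the highest in the lipid synthesis genes, whereas CDK8-/- library 2 stood close to library 3 of its group. Within the list, Fabp1 was the highest of its group in both libraries that stood apart, at 7722, 17439 and 4505 in CDK8-/- and 17452, 7265 and 5065 in the double knockout against 8993, 9355 and 6884 in WT, and so was Alpi, at 13837, 18802 and 15833 and 30551, 26714 and 10783 against 10872, 12035 and 16664. Sis, too, was highest in these 2 libraries of their groups, and Apoa1 was highest in library 3 of both groups. All 4 Paneth cell markers rose in CDK8-/- and in the double knockout, with sums, led by Lyz1, of 14148, 15252 and 11654 in WT, 49091, 38342 and 35952 in CDK8-/-, 13752, 14538 and 12663 in CDK19-/- and 24292, 51123 and 40704 in the double knockout. Stem cell markers, led by Olfm4, summed to 38537, 36659.6 and 33522, then 35577, 49018 and 29834, then 45003, 72899.7 and 62342, then 27088, 26846 and 23728 in the same order, and 3 of 4 fell in the double knockout, while 1, Lgr5, fell in CDK8-/- (−0.86). Of these marker calls, that of Apoa4 in CDK8-/- was kept only without CDK8-/- library 2, and that of the Paneth gene Defa24 was lost in CDK8-/- without any 1 WT library or CDK8-/- library 1 and kept in the double knockout only without double knockout library 1. The Paneth gene Mmp7 kept its call in CDK8-/- only without CDK8-/- library 2, and lost it in the double knockout without WT library 1 or 3 or double knockout library 2 or 3. No marker of these 3 lists was at 0. Among further markers, goblet cell Muc2 rose in CDK8-/- (0.98) and in the double knockout (1.36), and goblet cell Agr2 rose in CDK8-/- (0.90), but not without any 1 WT library. In the double knockout the epithelial keratin gene Krt20 rose (1.88) with Vil1 (0.41), while Cdx2 (−0.35), cycling cell Top2a (−0.52) and tuft cell Pou2f3 (−1.66) and Dclk1 (−1.16) fell. Ttr, from the hepatocyte list, fell in CDK8-/- (−1.14) and in the double knockout (−1.12). Enteroendocrine markers, led by Chgb, summed to 19535, 21716 and 13062 in WT and 23313, 13414 and 23659 in CDK8-/-. They summed to 17390, 25537 and 26228 in CDK19-/- and 10155, 21698 and 18372 in the double knockout. This sum, Chga of this list and goblet cell Clca1 were each the lowest of their group in both libraries that stood apart. Cycling cell markers, led by Top2a, summed to 11928, 11185 and 11909 in WT and 10070, 12308 and 7921 in CDK8-/-. They summed to 8461, 13785 and 13309 in CDK19-/- and 8631, 7283 and 7628 in the double knockout. The cycling sum, Mki67 and Top2a were each the highest of their group in both libraries that stood apart, while Ccnb1 was so only in CDK8-/- library 2. With 1 library left out, the call in the double knockout was lost for Vil1 without any 1 WT library or double knockout library 1, for Cdx2 without WT library 1 or double knockout library 2, for Dclk1 without WT library 1 or 2 or double knockout library 1 or 2, and for Top2a in every fit. The part of these markers in the results for the lipid synthesis genes was not tested.

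Senexin B for 16 h was compared with DMSO for 16 h to ask about inhibition of both kinases. By edgeR 2 of the 32 genes were called higher and 7 lower, where 4.36% of all genes were called higher and 3.39% lower. The median was −0.11 against −0.01 over all genes, and 18 of the 32 had an unadjusted p under 0.05. All 3 Senexin B libraries were below all 3 DMSO libraries in 13 of the 32 genes, as in 12.6% of all genes, and above in 6, as in 12.2%. By arm, 5 of 11 sterol genes were called lower (arm median −0.30) and 1 of 7 mevalonate genes lower (0.06), while 2 of 10 fatty acid genes were called higher and 1 lower (0.09). Of the regulators, 0 of 3 were called by edgeR and 1, Insig1, by DESeq2, with 2 at an unadjusted p under 0.05, and each was lower in all 3 Senexin B libraries than in any DMSO library. Srebf1 was at 5533, 5255 and 5164 with Senexin B against 6752, 6001 and 5648 with DMSO, Srebf2 at 12372, 12008 and 12569 against 14779.7, 12823 and 13000.2, and Insig1 at 14528, 15165 and 15588 against 15662, 19149 and 20039. They had log2 changes of −0.21, −0.14 and −0.28 (SE 0.0711, 0.0654 and 0.0859, adjusted p 0.0955, 0.237 and 0.0645). With the replicate number as a block, Srebf1 and Insig1 were called lower (adjusted p 0.0308 and 0.0339). Calls in the Senexin B paragraphs are otherwise from the fit without a block, and those of the block are given after each time.

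Hmgcs1 (ENSMUSG00000093930, chr13:119690379-119708260), the synthase that makes HMG-CoA at the head of the mevalonate arm, was at 9744, 11409 and 11497 with Senexin B for 16 h against 13723, 17681 and 19759.8 with DMSO. The groups did not overlap, with DMSO library 1 the lowest of its group, and the gene fell with a log2 change of −0.65 (SE 0.112, adjusted p 0.00271). The other mevalonate genes were not called, at log2 fold changes of −0.40 for Idi1, −0.38 for Fdps and 0.06 to 0.13 for Acat2, Mvk, Pmvk and Mvd.

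In the sterol arm, Fdft1, the squalene synthase, was at 8237, 8759.9 and 8788 with Senexin B for 16 h against 10134, 10270.1 and 12603 with DMSO. It was lower in every Senexin B library, with a log2 change of −0.36 (SE 0.0829, adjusted p 0.0166). Lss, which closes squalene epoxide into lanosterol, was at 5599.6, 5696 and 5889.8 against 6533, 8550.1 and 7854, without overlap, and fell with a log2 change of −0.42 (SE 0.0886, adjusted p 0.0100). Cyp51, the lanosterol 14-demethylase, was at 12548, 13537 and 13879 against 15966, 16391 and 18226, also without overlap, with a log2 change of −0.34 (SE 0.0789, adjusted p 0.0164). The 3 Senexin B libraries of each of these genes lay close together, and the DMSO libraries were more spread. Msmo1, a sterol C4-methyl oxidase, was at 6854, 6756 and 6986 against 7833, 8949 and 10864. Its groups did not overlap and DMSO library 3 was the highest, with a log2 change of −0.42 (SE 0.103, adjusted p 0.0207). Dhcr7, the last reductase on the route to cholesterol, was at 4292, 4231 and 4597 against 5277, 5344 and 6004, lower in each Senexin B library, with a log2 change of −0.34 (SE 0.0703, adjusted p 0.00813). The other 6 sterol genes were not called: Sqle (−0.30), Sc5d (−0.23), Hsd17b7 (−0.19) and Nsdhl (−0.16) were below 0, and Tm7sf2 (0.12) and Ebp (0.17) above 0.

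The fatty acid arm held the genes called higher at 16 h. Scd1 was at 18219, 17952 and 18933 with Senexin B against 11341, 13667 and 12851 with DMSO, higher in every Senexin B library, with a log2 change of 0.54 (SE 0.147, adjusted p 0.0373). Acss2, which makes acetyl-CoA from acetate, was at 7737, 7660.4 and 8139 against 5539.7, 6364 and 6537. The groups did not overlap, and it rose with a log2 change of 0.35 (SE 0.0844, adjusted p 0.0198). Acly, which makes acetyl-CoA from citrate, fell at −0.32 (adjusted p 0.0339). The remaining genes of the arm ranged from −0.09 for Me1 to 0.24 for Elovl6 and were not called, nor was Stard4 (0.04).

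In the Senexin B comparisons same-numbered libraries were taken as pairs. A fit with the replicate number as a block called 15 of the 32 genes at 16 h, the same 9 and Fdps (−0.38, adjusted p 0.0251), Idi1 (−0.38, 0.00560), Insig1 (−0.27, 0.0339), Sc5d (−0.23, 0.0215), Sqle (−0.30, 0.00666) and Srebf1 (−0.20, 0.0308). With the block within time Elovl6 was called as well (0.26, 0.0279). Over all genes 1198 were called without a block, 2293 with it and 2338 with the block within time. DESeq2 without a block called 13 of the 32, and 1508 of all genes. A fit of only these 2 groups called 6 of the 32 and 725 of all genes, without Acly, Fdft1 and Msmo1. With every library numbered 1 left out, a choice made after the data were seen, 16 of the 32 and 2257 of all genes were called, the same 9 with Fads1, Fdps, Hsd17b7, Idi1, Insig1, Sc5d and Sqle. Leaving out 1 library in the fit without a block gave 14 called genes without DMSO library 1, 7 without DMSO library 2, 4 without DMSO library 3, 3 without Senexin B library 1, 3 without library 2 and 4 without library 3, where 1819, 811, 898, 752, 657 and 676 of all genes were called. Hmgcs1 and Lss were called in each of these 6 fits, and Scd1 in none of them. Dhcr7 lost its call only without Senexin B library 2, and Acss2 without Senexin B library 1 or 3. Cyp51 lost it without DMSO library 3 or Senexin B library 1 or 2, Msmo1 and Fdft1 without DMSO library 3 or any Senexin B library, and Acly in all but the omission of DMSO library 1.

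**Figure D3:**
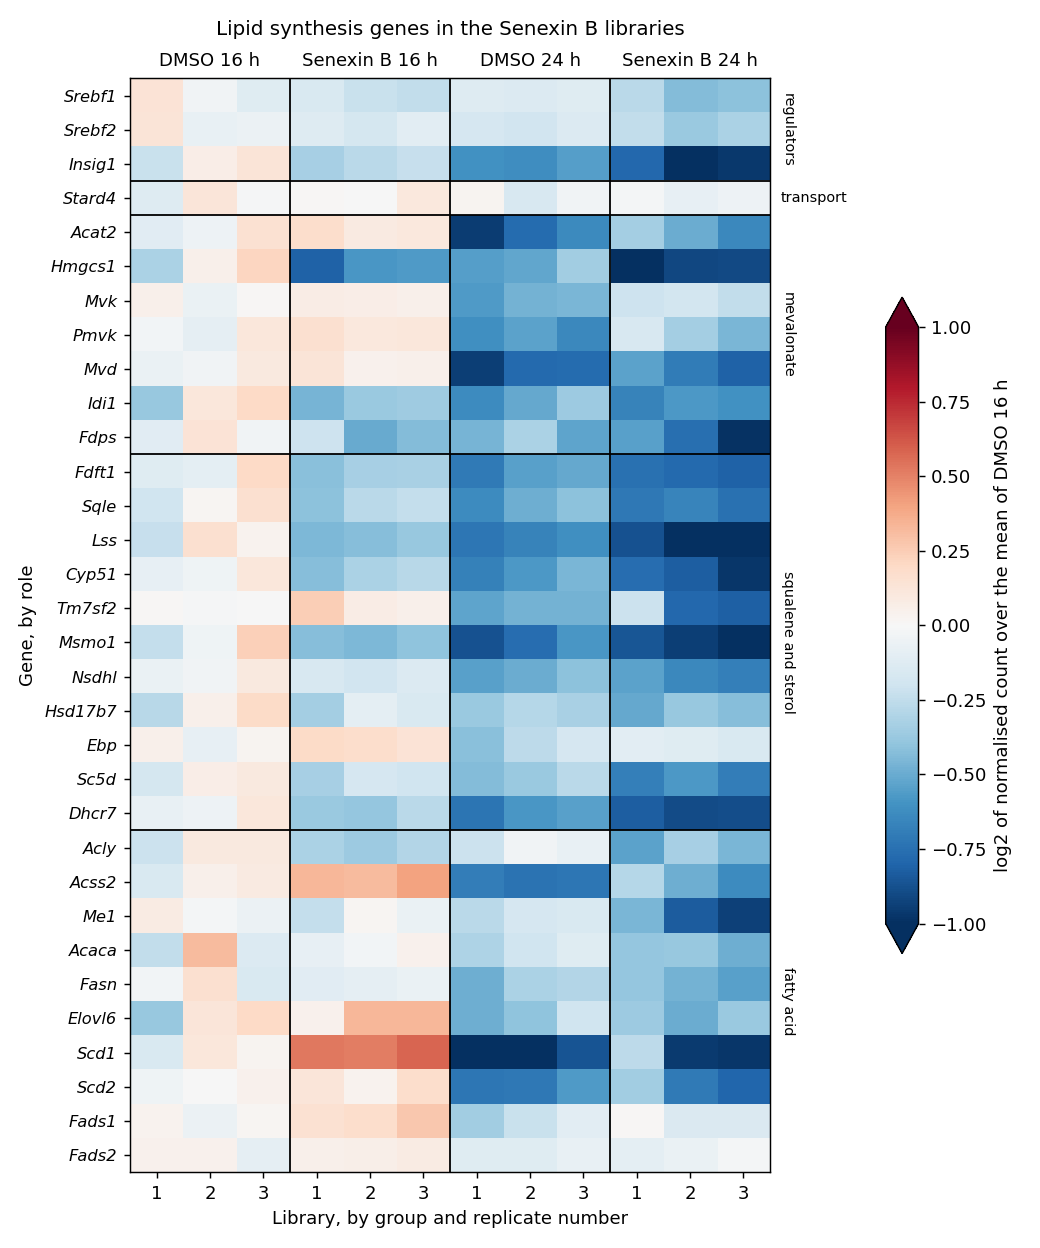
Heat map of the 32 genes, ordered by role, in the 12 inhibitor libraries, coloured by the log2 ratio of the normalised count to the mean with DMSO for 16 h with colours saturating at ratios of 1 either way. Most genes are lower in the 24 h libraries of either agent, and Scd1 and Acss2 are highest with Senexin B for 16 h.

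Senexin B for 24 h was compared with DMSO for 24 h. By edgeR 4 of the 32 genes were called higher and 9 lower, against 14.8% and 12.7% of all genes, and DESeq2 called 13 in all. The median was −0.13 against 0.00 over all genes, with 18 of 32 at an unadjusted p under 0.05. All 3 Senexin B libraries were below all 3 DMSO libraries in 15 of 32 genes, as in 22.1% of all genes, and above in 4, as in 23.5%. Of the regulators, Srebf1 was at 5078, 4553 and 4625 against 5617, 5594 and 5650.5 with DMSO, Srebf2 at 11403, 10444 and 10890.3 against 12076, 11859 and 12301, and Insig1 at 10604, 9163 and 9369 against 12023, 11904 and 12452. All 3 were lower in every Senexin B library, and Srebf1 and Insig1 were called lower, with log2 changes of −0.24, −0.15 and −0.32 (SE 0.0712, 0.0654 and 0.0861, adjusted p 0.0218, 0.111 and 0.0139) in the order Srebf1, Srebf2, Insig1.

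In the mevalonate arm, 3 genes rose and 1 fell at 24 h. Hmgcs1 was at 8357, 9088 and 9105 with Senexin B against 11651, 11904 and 13420.1 with DMSO, without overlap, and fell with a log2 change of −0.48 (SE 0.112, adjusted p 0.00665). Acat2, the cytosolic thiolase that joins the initial pair of acetyl-CoA units, was at 4779, 4282 and 3876 against 3124, 3546 and 3877. Its groups overlapped, with Senexin B library 3 just under DMSO library 3, and the gene was called higher with a log2 change of 0.29 (SE 0.0945, adjusted p 0.0326). The kinases Mvk and Pmvk rose at 0.29 and 0.29. Mvd (0.15), Idi1 (−0.12) and Fdps (−0.32) were not called.

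In the sterol arm, 4 of 11 genes fell and 0 rose at 24 h. Lss was at 4185, 3771 and 3568 with Senexin B against 4628, 4821 and 5004 with DMSO, lower in each Senexin B library, with a log2 change of −0.33 (SE 0.0890, adjusted p 0.0148). Cyp51 was at 9941, 9503 and 8579 against 10575, 11353 and 12294, without overlap, with a log2 change of −0.29 (SE 0.0791, adjusted p 0.0153). Sc5d was at 3069, 3309 and 3051 against 3649.6, 3823 and 4103, again without overlap, with a log2 change of −0.30 (SE 0.0798, adjusted p 0.0141). These 3 genes had their 3 Senexin B values below the lowest DMSO value. Dhcr7 fell at −0.25, and the 7 others, not called, ranged from −0.21 for Msmo1 to 0.16 for Ebp.

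In the fatty acid arm at 24 h, Me1 (ENSMUSG00000032418, chr9:86581371-86695953) was at 1717, 1323 and 1234 with Senexin B against 1956, 2092 and 2124 with DMSO. The groups did not overlap, Senexin B library 1 was nearest to DMSO, and Me1 fell with a log2 change of −0.53 (SE 0.107, adjusted p 0.00263). Acly was at 8856, 10208 and 9355 against 11099, 12526 and 12183, lower in each Senexin B library, with a log2 change of −0.33 (SE 0.0863, adjusted p 0.0114). Acss2 rose at 0.25. Scd1 was at 10545, 6497 and 6424 against 6184, 6206 and 6924, with only Senexin B library 1 above the DMSO range, and was not called (0.28, adjusted p 0.173). The other 6 genes of the arm lay between −0.21 for Acaca and 0.13 for Fads1, and Stard4 was at 0.00.

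With the replicate number as a block, 15 of the 32 genes were called at 24 h, the same 13 with Fdps (−0.32, adjusted p 0.0313) and Sqle (−0.20, 0.0310). With the block within time Fdft1 was called as well (−0.19, 0.0486). Over all genes 4252 were called without a block, 5712 with it and 5872 with the block within time. Without a block, 10 genes were called without DMSO library 1, 9 without DMSO library 2, 6 without DMSO library 3, 12 without Senexin B library 1, 7 without library 2 and 7 without library 3, where 3014, 3428, 3235, 3805, 2656 and 2919 of all genes were called. Me1, Hmgcs1, Acly and Mvk were called in all 6 of these fits. Lss lost its call without DMSO library 3 or Senexin B library 2 or 3, Insig1 without Senexin B library 2 or 3, and Sc5d and Cyp51 without DMSO library 3 or Senexin B library 3. Acat2 lost it without DMSO library 1 or 2 or Senexin B library 1 or 2, Pmvk without DMSO library 3 or Senexin B library 1, and Dhcr7 without DMSO library 2 or 3 or Senexin B library 2 or 3. Acss2 lost it in all but the omission of Senexin B library 3, and Srebf1 in all but that of Senexin B library 1. A fit of only these 2 groups called 16 of the 32 and 4605 of all genes, the same 13 with Acaca, Fdft1 and Sqle. With every library numbered 1 left out 17 of the 32 and 4989 of all genes were called, without Acat2, Acss2 and Pmvk, which were 3 of the 4 called higher, and with Srebf2, Fdft1, Fdps, Msmo1, Nsdhl, Sqle and Tm7sf2.

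Whether the Senexin B effect differed between 24 h and 16 h was tested as an interaction. By edgeR 0 of the 32 genes were called, as were 0 by DESeq2, with 2 at an unadjusted p under 0.05. Over all genes 0% were called higher and 0% lower, with 1995 at an unadjusted p under 0.05. The difference, the 24 h effect minus the 16 h effect, had a median of −0.01 against 0.01 over all genes, and this median was above 0 without 16 h DMSO library 1 (0.06) or 3 (0.00), 24 h DMSO library 2 (0.02) or 3 (0.02), 16 h Senexin B library 3 (0.01), or 24 h Senexin B library 2 (0.01) or 3 (0.03). It was above 0 for 7 of 7 mevalonate genes (median 0.17) and below 0 for 10 of 10 fatty acid genes (−0.08). Me1, at 1995, 2392 and 2249 with Senexin B for 16 h against 2486, 2321 and 2257 with DMSO, overlapped at that time, and its difference was −0.44 (SE 0.150, adjusted p 0.287). Mvk was at 1657, 1652 and 1634 against 1635, 1501 and 1589.8 at 16 h and at 1367, 1385 and 1329 against 1065, 1133 and 1150.1 at 24 h, with a difference of 0.22 (0.0843, 0.318). Idi1 was at 1944, 2069 and 2089 against 2064, 2894 and 3074 at 16 h and at 1688, 1801 and 1756 against 1734, 1874 and 2082 at 24 h, with a difference of 0.28 (0.165, 0.502). The regulators had log2 changes of −0.04, −0.01 and −0.04 (SE 0.101, 0.0924 and 0.122, adjusted p 0.920, 0.978 and 0.920). With all 4 libraries numbered 1 left out, as above, 4 genes were called, Idi1, Me1, Scd1 and Tm7sf2, and 764 of all genes.

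The vehicle libraries were compared between times, which shares each DMSO group with a Senexin B comparison above. With DMSO for 24 h against 16 h, 0 of the 32 genes were called higher and 22 lower by edgeR, where 4.52% of all genes were called higher and 6.59% lower. DESeq2 called 0 higher and 25 lower, with 2289 called over all genes, and 0 of the 32 genes were higher at an unadjusted p under 0.05 while 26 were lower. All 32 log2 fold changes were below 0, with a median of −0.49 against 0.00 over all genes. All 3 libraries at 24 h were below all 3 at 16 h in 25 of the 32 genes, as in 15.8% of all genes, and above in 0, where 12.9% of all genes were above. The called genes were 1 of 3 regulators, 7 of 7 mevalonate genes (median −0.50), 10 of 11 sterol genes (−0.51) and 4 of 10 fatty acid genes (−0.29). Insig1 was at 12023, 11904 and 12452 at 24 h against 15662, 19149 and 20039 at 16 h and was the called regulator, the 3 having log2 changes of −0.13, −0.16 and −0.59 (SE 0.0711, 0.0654 and 0.0862, adjusted p 0.266, 0.117 and 0.00219). Stard4 was at −0.05 and not called.

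By role, Acat2 was at 3124, 3546 and 3877 with DMSO for 24 h against 5602, 5827 and 6701 for 16 h, without overlap, and fell with a log2 change of −0.78 (SE 0.0947, adjusted p 0.00112). Mvd, the decarboxylase of mevalonate diphosphate, was at 2669.6, 2994 and 3003 against 4903, 4996 and 5477, with a log2 change of −0.83 (SE 0.0785, adjusted p 0.000659). Both mevalonate genes had every 24 h library well below every 16 h library. In the sterol arm, Lss was at 4628, 4821 and 5004 against 6533, 8550.1 and 7854, with a log2 change of −0.67 (SE 0.0889, adjusted p 0.00155). Msmo1 was at 5036, 5449.6 and 6148 against 7833, 8949 and 10864, with a log2 change of −0.73 (SE 0.103, adjusted p 0.00187). Dhcr7 was at 3332, 3693 and 3795 against 5277, 5344 and 6004, with a log2 change of −0.62 (SE 0.0706, adjusted p 0.000955). None of these 3 sterol genes overlapped between the times. In the fatty acid arm, Scd1 was at 6184, 6206 and 6924 against 11341, 13667 and 12851, with a log2 change of −0.97 (SE 0.148, adjusted p 0.00250). Scd2 was at 47699.9, 47875 and 53198 against 76531, 78629 and 80977, with a log2 change of −0.67 (SE 0.0974, adjusted p 0.00222). Acss2 was at 3811, 3693 and 3732 against 5539.7, 6364 and 6537, with a log2 change of −0.71 (SE 0.0850, adjusted p 0.00106). These 3 also had no overlap between the times.

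The other genes called lower with time in DMSO were Hmgcs1, Mvk, Pmvk, Idi1, Fdps, Fdft1, Sqle, Cyp51, Tm7sf2, Nsdhl, Ebp, Sc5d and Fasn, at log2 fold changes from −0.60 for Pmvk to −0.28 for Ebp. Not called were Hsd17b7 (−0.33), Acly (−0.11), Me1 (−0.19), Acaca (−0.21), Elovl6 (−0.36), Fads1 (−0.22) and Fads2 (−0.10). The 8 genes with values in every library above and Insig1 were called in each of the 6 fits that left out a library, in which 24 of the 32 genes were called without 16 h library 1, 21 without library 2, 16 without library 3, 15 without 24 h library 1, 18 without library 2 and 21 without library 3, where 2296, 2084, 434, 522, 1095 and 946 of all genes were called against 1719 with all 12 libraries. Calls were lost for Fdps in all but the omissions of 16 h library 1 and 24 h library 2, and for Ebp, Hmgcs1 and Idi1 without 16 h library 3 or 24 h library 1 or 2. Tm7sf2 lost its call without 16 h library 3 or any 24 h library, Sc5d without 16 h library 3 or 24 h library 1, and Fasn without 24 h library 1. A fit of only these 2 groups called 16 of the 32 and 385 of all genes, without Ebp, Fasn, Fdps, Hmgcs1, Idi1 and Sc5d. With every library numbered 1 left out 23 of the 32 and 2489 of all genes were called, without Ebp and with Elovl6 and Hsd17b7. Time in DMSO cannot be told apart from anything else that differed between the 16 h and 24 h cultures.

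**Figure D4:**
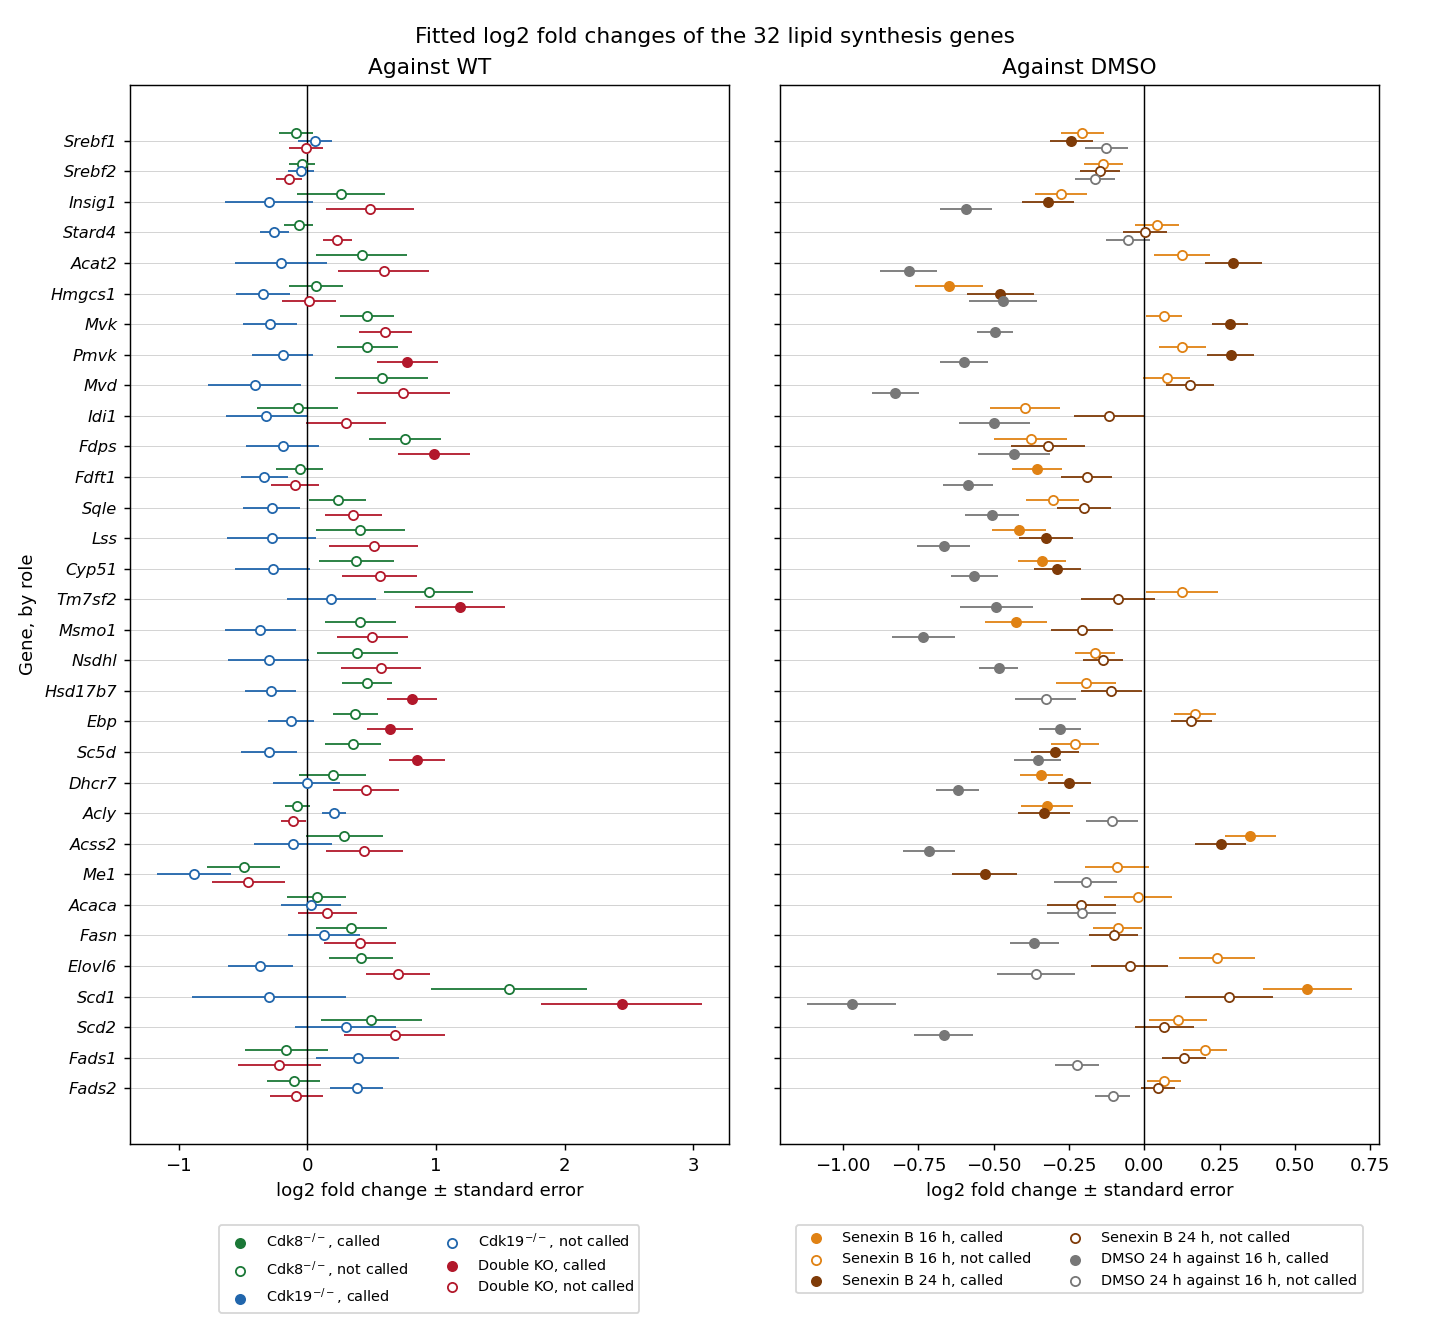
Log2 fold changes with standard errors of the 32 genes against WT for each genotype (left), and for Senexin B against DMSO at 16 h and 24 h and DMSO at 24 h against 16 h (right), with filled points for genes called at an adjusted p under 0.05. On the left 7 points are filled, all double knockout, and on the right every DMSO time point lies below 0.

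Markers moved in the inhibitor experiment too. Paneth markers, led by Defa24, summed to 36738, 53638 and 50559 with DMSO for 16 h, 56261, 53419.5 and 53008 with DMSO for 24 h, 35199, 37481 and 29406 with Senexin B for 16 h and 34295, 29956 and 24914 for 24 h. Of the 4, 1 fell with Senexin B at 16 h, Defa24, whose call was kept only without DMSO library 1, and 3 fell at 24 h. Enterocyte markers, led by Fabp1, summed in the same order to 111466, 102064 and 89664, then 95219.6, 87998 and 80998, then 96678, 92443 and 91118, then 85573, 78891 and 85559. Sis fell with Senexin B at both times (−0.73 and −0.92), at 16 h not without DMSO library 2 or Senexin B library 1 or 3. At 24 h Fabp1 rose with Senexin B (0.27), not without DMSO library 3, and so did Apoa1 (0.51), whose call was kept only without DMSO library 1. Fabp1 fell with time in DMSO (−0.51). No marker of the 2 lists was at 0. Stem cell Lgr5 fell with Senexin B at 16 h (−0.47), where its call was kept only without DMSO library 1, and at 24 h (−0.97). Goblet cell Clca1 (0.85 and 0.96) and Agr2 (0.44 and 0.80), enteroendocrine Chga (0.52 and 0.66), and epithelial Krt8 (0.37 and 0.45) and Krt18 (0.54 and 0.64) rose with Senexin B at 16 h and 24 h, and Ttr fell (−0.59 and −0.79). Of these, calls at 16 h were lost for Agr2 without DMSO library 1 or 2 or Senexin B library 2 or 3, for Chga without DMSO library 2 or 3 or Senexin B library 2 or 3, and for Krt8 without Senexin B library 2. Called at 24 h but not at 16 h, goblet cell Tff3 (0.27) and tuft cell Dclk1 (0.46) and Pou2f3 (0.40) rose with Senexin B, while goblet cell Fcgbp (−0.51) and epithelial Krt20 (−0.82) fell, and none of these 5 was called in the interaction. Tff3 lost its call without DMSO library 2 or Senexin B library 2, Dclk1 without DMSO library 2 or Senexin B library 1, Krt20 without DMSO library 1 or Senexin B library 2 or 3, and Pou2f3 in all but the omission of Senexin B library 2. With time in DMSO Clca1 (0.46), enteroendocrine Chgb (0.52) and fibroblast Pdgfra (1.44) rose and Ascl2 fell (−0.30). These calls were lost without 16 h library 3 for all 4 genes, and also without 24 h library 3 for Chgb, 24 h library 1 or 2 for Ascl2, and each of the 24 h libraries for Clca1. The part of these markers in the results for the 32 genes was not tested.

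The proteins that carry, cut or degrade SREBP pathway components, and the partner factors of SREBP, were a list of 13 genes. Of these, 0 were called by edgeR in CDK8-/- or in CDK19-/- (1 and 0 at an unadjusted p under 0.05) and 0 with time in DMSO (3), where DESeq2 called 0, 0 and 1. In the double knockout 2 fell, the factor Sp1 (−0.32, adjusted p 0.0338) and the site-1 protease gene Mbtps1 (−0.22, 0.0437). With Senexin B the ubiquitin ligase gene Rnf139 fell at 16 h (−0.30) and at 24 h (−0.31), and Mbtps1 also fell at 24 h (−0.22). In the fits that left out 1 library, Sp1 kept its call only without double knockout library 1, and Mbtps1 in no fit for the double knockout and only without Senexin B library 1 at 24 h. Rnf139 kept its call at 16 h only without DMSO library 1 and lost it at 24 h without DMSO library 3.

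A list of 13 further SREBP-controlled genes, 12 of them tested, held Lpin1, which encodes a phosphatidate phosphatase. Lpin1 was at 315, 337 and 299 in WT, 462, 859 and 664 in CDK8-/- and 1412, 760.2 and 748 in the double knockout. All 6 knockout libraries were above WT, and Lpin1 rose in CDK8-/- (1.06, adjusted p 0.0378) and in the double knockout (1.62, 0.00202). In CDK8-/- 2 of the 12 rose, the other being the elongase Elovl5 (0.47), and in the double knockout 3 rose, with Elovl5 (0.50) and the retinol dehydrogenase Rdh11 (0.78), while 0 were called in CDK19-/- by edgeR and 0 by DESeq2 (1 at an unadjusted p under 0.05). With Senexin B, Mid1ip1, an activator of acetyl-CoA carboxylase, rose at 16 h (0.60) and at 24 h (0.73), and the ketone-using ligase Aacs rose at 24 h (0.29). With time in DMSO 10 of the 12 fell, where 6.59% of all genes were called lower. Among them were Aacs (−0.67), Lpin1 (−0.63), Mid1ip1 (−0.41) and the citrate carrier gene Slc25a1 (−0.47). With 1 library left out, the call in CDK8-/- was kept for Lpin1 only without CDK8-/- library 1 and for Elovl5 in no fit. In the double knockout Elovl5 lost it without WT library 1 or double knockout library 1 or 2, and Rdh11 without any 1 WT library or double knockout library 1, and Aacs lost it for Senexin B at 24 h without DMSO library 1. Of the 10 that fell with time in DMSO, Pnpla3 lost its call without 16 h library 2 or 3 or 24 h library 2 or 3. Pcyt2 lost its call without 16 h library 3 or 24 h library 2 or 3, and the rest kept theirs in every fit.

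LXR, which senses oxidised sterols, and ChREBP, which senses sugar, act beside SREBP on lipid genes. Of 11 genes for these factors and LXR targets, Mlxipl, which encodes ChREBP, fell in CDK8-/- (−0.82) and the double knockout (−0.65), and its partner Mlx and the LXR target Lpcat3 rose in the double knockout (0.52 and 0.54). In CDK19-/- 0 of the 11 were called by edgeR and 2 by DESeq2, with 3 at an unadjusted p under 0.05. Of the 9 tested in the inhibitor experiment, Smpdl3a (0.31), Abcg5 (0.69) and Mylip (0.95) rose at 16 h, Mlx (0.24) and Abcg5 (0.59) rose at 24 h, and Mlx fell with time in DMSO (−0.29). Lpcat3 lost its call without any 1 WT library or double knockout library 1, and Mylip in every fit that left out a library. Smpdl3a at 16 h and Abcg5 at 24 h lost theirs without DMSO library 2 or 3 or Senexin B library 2 or 3, and Abcg5 at 16 h kept it only without DMSO library 1. Mlx lost its call at 24 h without Senexin B library 2 and with time in DMSO without 16 h library 3. Of 9 genes of the non-sterol isoprenoid branch, Pdss2 rose (0.33) and Ggps1 fell (−0.33) with Senexin B at 24 h, Ggps1 in no fit that left out a library, and 0 were called by edgeR elsewhere. DESeq2 also called 1 of these 9 in the double knockout and 1 with Senexin B at 16 h, and 0, 0 and 0 in CDK8-/-, CDK19-/- and with time in DMSO, the 5 unadjusted counts under 0.05 being 2, 1, 2, 0 and 0. In the double knockout against CDK8-/-, the departure from additivity and the interaction, 0 genes of the 4 lists were called by edgeR, with 1, 1, 2 and 1 at an unadjusted p under 0.05 in the order of the lists for the first of these, 1, 2, 5 and 2 for the departure, and 0, 4, 2 and 2 for the interaction. DESeq2 called 2 genes of the LXR and ChREBP list in the departure and 0 elsewhere in these 3 tests.

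Promoter sequences are shown because 22 of the 32 genes fell with time in DMSO. Windows from 250 bases before to 50 after the gene start (RefSeq, build GRCm38.p6) were held for 25 of the 32 genes, the missing being Stard4, Fdps, Fdft1, Sqle, Scd1, Scd2 and Fads1. The letters TCACNCCAC, a form of the sterol regulatory element, were searched on both strands and matched in 1 of the 25 genes (4.00%), Hmgcs1, against 1.44% of 27025 genes with a window. The Hmgcs1 match, TCACCCCAC, starts 137 bases before the gene start. CCAAT, the box bound by NF-Y, matched on either strand in 21 of the 25 genes (84.0%) against 41.1% of all genes with a window. A match is a description of letters. The windows of Hmgcs1, which fell with Senexin B at both times, of Msmo1, which fell at 16 h, and of Sc5d and Hsd17b7, which rose in the double knockout, follow 5′ to 3′ with TCACNCCAC, CCAAT and its reverse complement ATTGG in capitals.
Hmgcs1, chr13:119690101-119690400, plus strand: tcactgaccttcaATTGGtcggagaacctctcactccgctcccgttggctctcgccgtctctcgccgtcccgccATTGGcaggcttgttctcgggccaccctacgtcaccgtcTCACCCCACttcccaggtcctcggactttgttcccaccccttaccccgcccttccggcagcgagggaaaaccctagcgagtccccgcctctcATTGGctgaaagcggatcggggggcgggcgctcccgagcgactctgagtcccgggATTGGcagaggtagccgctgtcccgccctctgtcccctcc
Msmo1, chr8:64733529-64733828, minus strand: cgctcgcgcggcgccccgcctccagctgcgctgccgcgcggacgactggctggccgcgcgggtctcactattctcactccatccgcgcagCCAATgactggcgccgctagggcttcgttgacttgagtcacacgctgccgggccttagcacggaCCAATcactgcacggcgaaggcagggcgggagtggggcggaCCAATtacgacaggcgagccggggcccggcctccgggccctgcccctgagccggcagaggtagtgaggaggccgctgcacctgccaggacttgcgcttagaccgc
Sc5d, chr9:42264251-42264550, minus strand: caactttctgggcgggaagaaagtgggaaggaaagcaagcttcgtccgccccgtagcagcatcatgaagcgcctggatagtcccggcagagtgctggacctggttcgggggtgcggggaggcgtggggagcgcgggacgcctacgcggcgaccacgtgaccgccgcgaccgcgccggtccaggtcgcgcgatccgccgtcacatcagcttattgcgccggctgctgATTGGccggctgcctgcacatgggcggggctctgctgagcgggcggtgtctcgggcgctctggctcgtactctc
Hsd17b7, chr1:169969156-169969455, minus strand: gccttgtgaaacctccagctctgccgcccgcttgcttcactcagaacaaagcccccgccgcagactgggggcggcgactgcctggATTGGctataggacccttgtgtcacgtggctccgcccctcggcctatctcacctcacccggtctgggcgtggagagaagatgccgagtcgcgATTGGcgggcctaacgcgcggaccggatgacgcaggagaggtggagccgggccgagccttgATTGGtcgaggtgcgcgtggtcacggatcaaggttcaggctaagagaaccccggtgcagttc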

How the data were processed

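The deposited tables hold read counts per Ensembl gene that the authors made with STAR (2.6.0c in the processing notes) on mouse build GRCm38.p6, 1 table per library and without normalisation. Counts of column 4 were used in both experiments. Genes were filtered by filterByExpr, normalised by TMM and tested in edgeR 4.0.16 (R 4.3.3) by the quasi-likelihood F test, with 1 model per experiment of 12 libraries and 4 groups, and adjusted by Benjamini-Hochberg over all genes tested. The standard error is the absolute log2 fold change divided by the square root of F. Alternatives were DESeq2 1.42.0 (Wald test, and its size factors in edgeR), no filter, only the groups compared, at least 10 counts in every library, a replicate block, column 2, and each library left out. Pairing by replicate number was judged from the data alone, by the correlation over genes of deviations from the group means, and was taken where every pair exceeded 0.1. This held for Senexin B with DMSO at 16 h (0.303, 0.101 and 0.110 for numbers 1 to 3) and 24 h (0.377, 0.137 and 0.187), although the highest pair with different numbers reached 0.154 and 0.147. The procedure was tested on simulated data. The members and lists were chosen with earlier results of these data known. Values in every library are given for up to 8 called genes per comparison by largest change, or else the 3 with the smallest p, always with Srebf1, Srebf2 and Insig1. Up to 4 called genes of each other list are named per comparison. Exon lengths and overlaps came from GENCODE vM21. Low counts limit precision most for Idi1 in the genotype libraries, where it had the fewest reads of the 32 genes in column 4. Its median there was 45.5 reads, against 136 in column 2.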

Additional observations from a re-analysis of the deposited data

How the results depend on the processing

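Counts of called genes among the 32 stayed within 1.5 times the reported count in 113 of 138 refits. Many of the 113 set 0 calls against 0, in comparisons where none of the 32 was called, and do not bear on how calls are kept. The other 25 are given here. With no filter on low counts, 3 genes were called in CDK8-/- against WT, 1 in CDK19-/-, 11 in the double knockout and 1 in the departure from additivity, where DESeq2 also called 1. A fit of only the groups compared called 3 in the double knockout. For Senexin B at 16 h, 15 were called with the replicate block and 16 with the block within time, and at 24 h 15 and 16. In the other comparisons of 2 groups not every same-numbered pair exceeded 0.1, so pairs were not taken. With time in DMSO the correlations were 0.366, −0.0503 and 0.284 for numbers 1 to 3. The highest pair with different numbers there reached 0.120, so numbers 1 and 3 did go together. Outside the Senexin B comparisons the block called 5 of the 32 in the double knockout, 25 with time in DMSO and 0 in the rest. Neither block changed a call of the 32 genes for Senexin B beyond those printed beside the results. Leaving out 1 library gave 0 to 1 in CDK19-/-, 0 to 9 in the double knockout, 0 to 1 in the departure, 3 to 14 for Senexin B at 16 h and 6 to 12 at 24 h. With every library numbered 1 left out, an alternative chosen after seeing the data, 16 were called for Senexin B at 16 h, 17 at 24 h, 23 with time in DMSO and 4 in the interaction.

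Over all genes the count of called genes moved by more than 1.5 times in 62 of 138 refits. Among the named genes, 963 refits kept direction and side of the threshold, 18 gained a call, 78 lost it, and 30 changed sign, all of them for Srebf1, Srebf2 or Insig1 where these were not called. Leaving out 1 library, the log2 fold changes ranged as follows in CDK8-/-: −0.093 to 0.019 for Srebf2 and −0.13 to 0.47 for Insig1. In CDK19-/- Srebf2 ranged from −0.0757 to 0.0362. In the double knockout Srebf1 ranged from −0.19 to 0.0876 and Insig1 from −0.0050 to 0.78. Against CDK8-/- they ranged from −0.0914 to 0.18 and from −0.26 to 0.62. In the departure Srebf1 ranged from −0.17 to 0.12 and Srebf2 from −0.16 to 0.0187. In the interaction Srebf1 ranged from −0.11 to 0.0204, Srebf2 from −0.0783 to 0.0267 and Insig1 from −0.11 to 0.0562. With CDK8-/- library 2 and double knockout library 1 both left out, also chosen after seeing the data, Insig1 was at −0.12 in CDK8-/- and −0.0053 in the double knockout, and Srebf1 at −0.0314 against CDK8-/- and −0.11 in the departure. Srebf1 in the double knockout was at 0.0085 by DESeq2, 0.0080 with its size factors and 0.0005 with only the groups compared. With column 2, Srebf1 was at −0.0016 in the departure and Srebf2 at 0.0018 in the interaction. The cause was not tested.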
